A study of Homo sapiens with 16 samples.

Results

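Voltage-gated sodium channel genes form a family of alpha subunits, which make the pore, and beta subunits, which accompany it. The members described here were chosen by name: the alpha subunit genes SCN1A, SCN2A, SCN3A, SCN7A, SCN8A and SCN9A and the beta subunit genes SCN2B and SCN3B. They are 8 of the 14 genes whose symbol is SCN with an A or B suffix, and 8 of the 19974 protein-coding genes in the RefSeq table of GRCh38.p14. Open DNA was mapped by ATAC-seq, which uses the transposase Tn5, in brain organoids derived from the established human embryonic stem cell line H9 (genotype label WT). The organoids were enriched for dorsal telencephalon, the embryonic origin of the cerebral cortex. The line carried EGFP joined through a P2A peptide to one SOX2 allele and dTomato under the hSYN1 promoter at AAVS1, and both populations came from it. Neurons were sorted as hSyn1::dtomato+ cells and progenitors as SOX2::EGFP+ cells at days 40, 60, 90 and 120, with 2 libraries in each of the 8 groups. The reporters define the populations: a neuron here is a cell with an active hSYN1 promoter, and a progenitor is a cell that expresses SOX2.

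Sodium channels open on depolarisation and carry the inward current that starts and propagates the action potential. Alpha subunits cluster at the axon initial segment and at nodes of Ranvier, where ankyrin-G and spectrins hold them, and beta subunits alter their gating and act as adhesion molecules. Cortical neurons change the alpha subunits they use as they mature, with SCN3A and SCN2A prominent in the fetal brain and SCN1A and SCN8A gaining later.

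Each library had its own list of broad peaks, from 67977 to 138432 per library, which covered 77.4 ± 18.4 Mb in neurons and 81.2 ± 20.1 Mb in progenitors (SD, n = 8 each). The smallest total was 36.9 Mb, in progenitor day 120 replicate 2, and this list and neuron day 60 replicate 2 were the 2 shortest. Read numbers are not part of the lists, and depth is therefore unknown. Nothing in the labels tells if both libraries in a group are separate cultures, and p-values therefore reflect only the variation among these libraries, possibly technical. The labelled populations were compared on marker genes, where 11.1% of all genes tested were called higher in neurons and 9.90% lower. Of 6 radial glia markers, 5 were lower in neurons than in progenitors, with SOX2 at −1.12 ± 0.13 on the log2 scale (SE, limma, adjusted p = 1.07e-06). Progenitors were sorted on EGFP at SOX2, so its value is no independent check of the labels. Only RBFOX3 of 7 neuronal markers was higher, at 0.59 ± 0.09 (SE, limma, adjusted p = 2.63e-05). The other neuronal markers did not pass, and 1 of 7 is near the share over all genes. Markers of astroglia (2 of 4) and of the GABAergic lineage (2 of 5) were partly lower in neurons, 1 of 3 endothelial markers was lower, and none of 5 oligodendrocyte lineage or 4 microglial markers passed. The summed covered length of the astroglial markers was 7.79 to 15.4 kb in neurons and 6.95 to 20.7 kb in progenitors, and that of the GABAergic markers 19.0 to 50.4 kb in neurons and 22.9 to 44.9 kb in progenitors. Their part in the results below was not tested.

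For each gene, the bases under peaks were counted in a window of the gene body and 20 kb on either side, which is called the covered length here. SCN3A, SCN2A, SCN1A, SCN9A and SCN7A lie in this order on chromosome 2, with 592.3 kb between SCN2A and SCN1A. Some neighbours share bases: 4.6 kb of window for SCN2A and SCN3A and 12.4 kb for SCN7A and SCN9A. The SCN1A window shares none with another member. The antisense transcript SCN1A-AS1 overlaps the SCN1A and SCN9A windows, SCN4B and JAML reach into that of SCN2B, GRAMD1B into that of SCN3B, and FIGNL2 and TMDD1 into that of SCN8A. Long non-coding RNA genes also overlap: LOC102724058 the SCN1A window, LOC124906087 that of SCN7A, and LOC124902777 and LOC105369543 that of SCN3B. In sorted bulk libraries, fewer cells with an open site and less opening per cell cannot be told apart.

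The promoter table of RefSeq (GRCh38.p14, the coordinates of hg38) matched 6 of the 8 members; SCN3A and SCN3B were not matched. The 250 bases before 5 annotated starts are shown because peaks at these starts differ between the populations or between genes. Capitals mark CG dinucleotides, and each sequence runs 5′ to 3′ on the strand of its gene. The far SCN1A start has the sequence of chr2:166149162-166149411 (minus strand) before it, and the inner start, 21.1 kb downstream, that of chr2:166128021-166128270 (minus). For SCN2A the sequence is chr2:165239164-165239413 (plus), for SCN8A chr12:51590983-51591232 (plus) and for SCN7A chr2:166494250-166494499 (minus).
SCN1A far start: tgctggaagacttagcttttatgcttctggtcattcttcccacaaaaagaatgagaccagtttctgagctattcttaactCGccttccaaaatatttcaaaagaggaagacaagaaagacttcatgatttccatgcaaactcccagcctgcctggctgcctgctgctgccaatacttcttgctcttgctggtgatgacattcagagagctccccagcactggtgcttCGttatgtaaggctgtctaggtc
SCN1A inner start: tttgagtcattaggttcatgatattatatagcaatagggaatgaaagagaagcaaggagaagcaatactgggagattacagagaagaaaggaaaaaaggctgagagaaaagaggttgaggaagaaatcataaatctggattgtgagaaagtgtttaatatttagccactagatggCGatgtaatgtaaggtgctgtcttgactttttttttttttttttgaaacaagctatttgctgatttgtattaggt
SCN2A: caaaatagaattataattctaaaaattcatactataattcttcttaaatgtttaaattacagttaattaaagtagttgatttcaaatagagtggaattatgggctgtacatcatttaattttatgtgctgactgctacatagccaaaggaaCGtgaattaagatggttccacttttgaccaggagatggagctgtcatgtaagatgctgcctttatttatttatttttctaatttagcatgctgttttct
SCN8A: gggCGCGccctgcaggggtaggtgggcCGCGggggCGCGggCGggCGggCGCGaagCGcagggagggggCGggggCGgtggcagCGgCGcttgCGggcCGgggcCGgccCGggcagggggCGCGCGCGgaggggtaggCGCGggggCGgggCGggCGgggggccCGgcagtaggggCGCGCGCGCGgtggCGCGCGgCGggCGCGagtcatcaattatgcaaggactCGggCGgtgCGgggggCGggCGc
SCN7A: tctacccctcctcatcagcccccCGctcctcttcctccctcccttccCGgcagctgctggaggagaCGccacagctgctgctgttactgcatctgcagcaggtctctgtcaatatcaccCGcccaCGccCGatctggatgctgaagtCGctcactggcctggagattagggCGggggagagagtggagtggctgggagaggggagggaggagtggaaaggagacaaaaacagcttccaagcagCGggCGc
The SCN8A sequence has 45 CG dinucleotides and 85.6% GC, a higher GC share than 99.7% of the 34961 promoters in the table, whose median is 58.4%. SCN7A has 10 CG dinucleotides and 62.4% GC. At the other end are SCN2A, with 1 CG dinucleotide and 29.2% GC, and SCN1A, with 2 and 45.6% at the far start and 1 and 33.6% at the inner start. SCN9A has 74.0% GC and SCN2B has 38.0%. Both strands were searched for GGGCGG (the GC box), for TTCAGCACC and GGACAG (parts of the RE1 element bound by REST, a repressor of neuronal genes) and for CAGCTG (an E-box), which occur in 42.7%, 0.289%, 17.2% and 14% of all promoters of this length. GGGCGG is found in SCN7A, SCN8A and SCN9A, where each match also holds a CG dinucleotide, and CAGCTG is found in SCN7A and SCN9A. GGACAG is found before the other SCN7A start, which is not shown. None of the 4 motifs occurs in the windows shown for SCN1A and SCN2A.

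Across the populations, SCN3B and SCN3A had more covered length in neurons than in progenitors, and no member was called lower. That is 2 of 8 members higher and 0 lower, in a comparison in which 21.0% of 18755 genes tested were called, 11.1% as higher and 9.90% as lower. All 8 members passed the filter on low coverage. The median difference of the members was 0.12 on the log2 scale, against 0.05 over all genes tested. Differences are neurons minus progenitors of log2(covered bases + 500), scaled by each library's total of covered bases, from 1 limma fit over all genes with Benjamini-Hochberg adjustment and a threshold of 0.05.

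SCN3B, a beta subunit that binds the pore without a covalent bond, differed most. In neurons its window held 5.62 and 6.28 kb (day 40), 6.36 and 4.51 kb (day 60), 5.60 and 5.49 kb (day 90), and 2.47 and 2.55 kb (day 120). Progenitors had 2.20 and 2.25 kb (day 40), 2.79 and 3.12 kb (day 60), 3.35 and 3.04 kb (day 90), and 3.12 and 0.841 kb (day 120). Both neuron libraries lay above both progenitor libraries on 3 of the 4 days, and at day 120 the populations overlapped in kb. On the scaled log2 level they did not overlap at day 120, with 5.56 and 5.77 in neurons and 5.41 and 5.185 in progenitors. The mean was 4.86 ± 1.56 kb in neurons and 2.59 ± 0.82 kb in progenitors (SD, n = 8 each), a ratio of 1.88, and the scaled difference was 0.84 ± 0.11 (SE, limma, adjusted p = 8.20e-06). By day it was 0.91, 1.05, 1.04 and 0.37 from day 40 to day 120. The call was kept without each of the 16 libraries in turn and under each alternative setting tried.

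SCN3A, an alpha subunit expressed most strongly before birth, followed. Its neuron windows held 5.81 and 6.0 kb (day 40), 5.16 and 1.85 kb (day 60), 5.50 and 5.10 kb (day 90), and 5.53 and 3.42 kb (day 120). In progenitors they held 2.03 and 2.53 kb (day 40), 2.84 and 2.85 kb (day 60), 4.94 and 3.72 kb (day 90), and 8.01 and 1.81 kb (day 120). The neuron libraries stood clear of the progenitor libraries at days 40 and 90 only, and the highest single value belonged to a progenitor library of day 120. The scaled difference was 0.49 ± 0.13 (SE, limma, adjusted p = 0.00868). It did not pass without scaling (0.44, adjusted p = 0.327), with scaling by the median over genes (0.45, adjusted p = 0.0548), in lists cut to equal length (0.45, adjusted p = 0.208) or with peaks of −log10 q of at least 3 (0.33, adjusted p = 0.132).

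**Figure D1:**
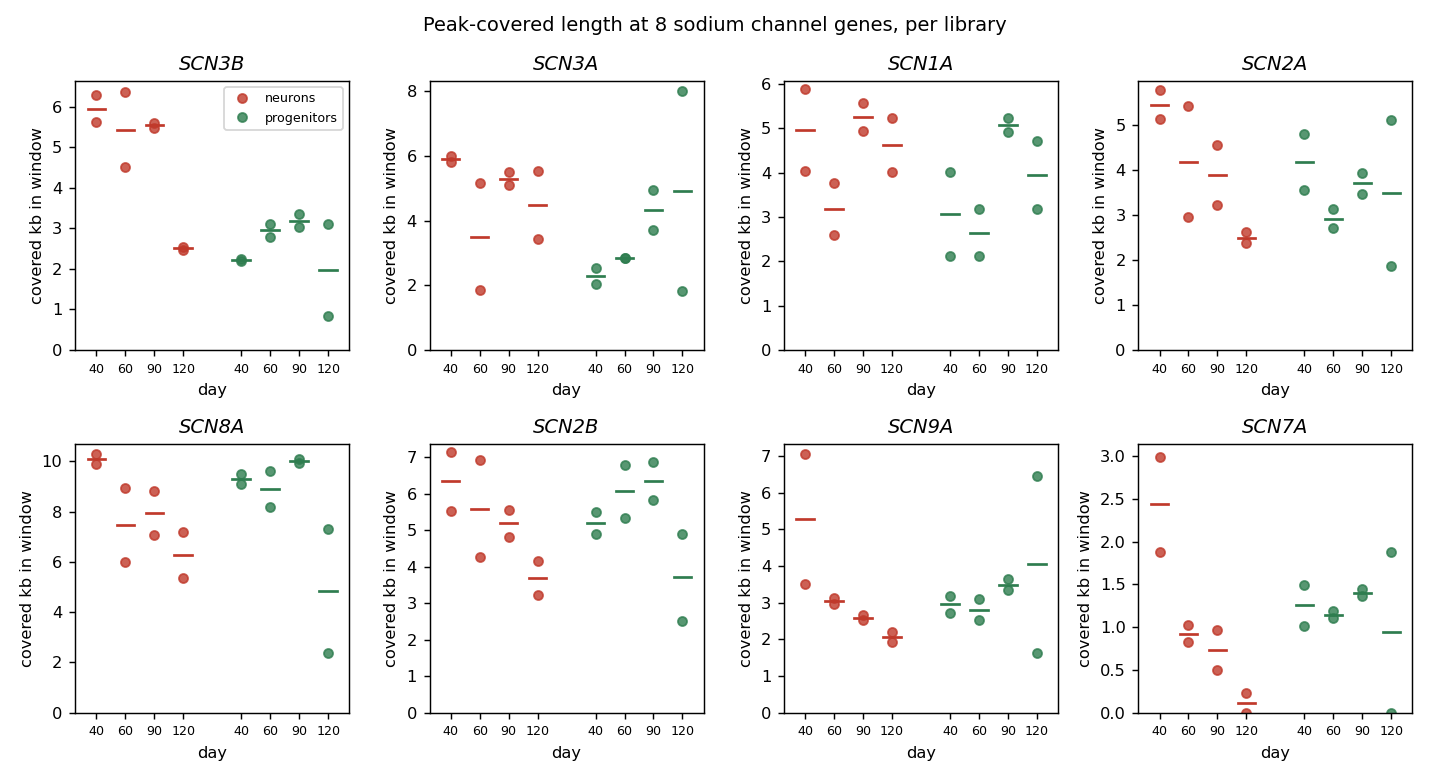
Covered length (kb, y axis, each panel with its own scale) in the window of each member, by day (x axis), with 1 point per library and a bar at the mean of the 2 libraries; neurons are left of progenitors in each panel. SCN3B is above 4.5 kb in the 6 neuron libraries of days 40 to 90 and at most 3.35 kb in every progenitor library.

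The other 4 alpha subunits of brain and nerve, SCN1A, SCN2A, SCN8A and SCN9A, did not pass in this comparison. SCN1A, whose loss of function underlies Dravet syndrome, had 4.50 ± 1.10 kb in neurons and 3.68 ± 1.22 kb in progenitors (SD, n = 8 each), a scaled difference of 0.34 ± 0.13 (SE, limma, adjusted p = 0.0693). It passed with a flank of 5 kb (0.51, adjusted p = 0.00963) and over the gene body alone (0.46, adjusted p = 0.0269). It also passed without progenitor day 40 replicate 2 (adjusted p = 0.0307) or without progenitor day 120 replicate 2 (adjusted p = 0.0152). SCN2A, the main alpha subunit of young excitatory neurons, had 4.0 ± 1.36 kb in neurons and 3.57 ± 1.06 kb in progenitors, with a difference of 0.18 ± 0.12 (adjusted p = 0.281). Its neuron windows held fewer peaks, 5.13 ± 1.36 against 6.50 ± 1.20 in progenitors, a difference that did not pass by number of peaks (−0.31, limma, adjusted p = 0.0740). SCN2A passed in lists cut to equal length (1.03, adjusted p = 5.86e-04) and with peaks of −log10 q of at least 3 (0.62, adjusted p = 0.00539), so its value rests on which peaks are counted.

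SCN8A, the alpha subunit of mature initial segments and nodes, had the longest covered length of the members, 7.95 ± 1.80 kb in neurons and 8.26 ± 2.57 kb in progenitors (SD, n = 8 each). Its scaled difference was 0.06 ± 0.10 (SE, limma, adjusted p = 0.704). SCN9A, known for its role in pain-sensing peripheral neurons, had 3.25 ± 1.62 kb in neurons and 3.33 ± 1.41 kb in progenitors, a difference of 0.01 ± 0.14 (adjusted p = 0.980). SCN2B, a beta subunit joined to the pore by a disulfide bond, had 5.20 ± 1.36 kb in neurons and 5.33 ± 1.37 kb in progenitors, a difference of 0.03 ± 0.11 (adjusted p = 0.902). SCN7A, an atypical member that senses sodium in glia, had the least, 1.05 ± 0.97 kb in neurons and 1.19 ± 0.55 kb in progenitors, a difference of −0.20 ± 0.20 (adjusted p = 0.546). The SCN7A difference turned to 0.72 with peaks of −log10 q of at least 3 (limma, adjusted p = 0.0208), and it was −0.77 with a flank of 5 kb (adjusted p = 0.0130). In kb, the SD within each population exceeded the difference between the means for SCN8A, SCN9A, SCN2B and SCN7A. The same held for SCN1A, SCN2A and SCN3A, although SCN3A was called on the scaled log2 level. SCN3A had 4.796 ± 1.432 kb in neurons and 3.59 ± 2.042 kb in progenitors (SD, n = 8 each). Only for SCN3B was the difference between the means larger than both SDs.

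The populations stood closer at day 120 for SCN1A, SCN3A and SCN3B, and the comparison was also run without that day. Since the day was chosen for its small differences at these members, the outcome is a description and no support for them. Without it, 4 of 8 members were higher in neurons and 0 lower, in a fit that called 19.4% of 18685 genes, 10% as higher and 9.39% as lower: SCN3B at 1.0, SCN3A at 0.63, SCN1A at 0.40 and SCN2A at 0.36 (limma, adjusted p = 4.26e-05, 0.00352, 0.0498 and 0.0358). At day 120 itself, the difference was 0.13 for SCN1A, −0.36 for SCN2A and 0.05 for SCN3A. For SCN7A (−0.93), SCN9A (−0.67) and SCN8A (0.43) it was the largest in size of the 4 days, so the members did not all draw closer. On the scaled log2 level, SCN1A (6.42 in neurons and 6.29 in progenitors) and SCN3A (6.36 in neurons and 6.31 in progenitors) had their highest day means there in both populations. Day 120 holds the shortest list of the series, and the part of that library in these values was not tested apart from leaving it out.

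**Figure D2:**
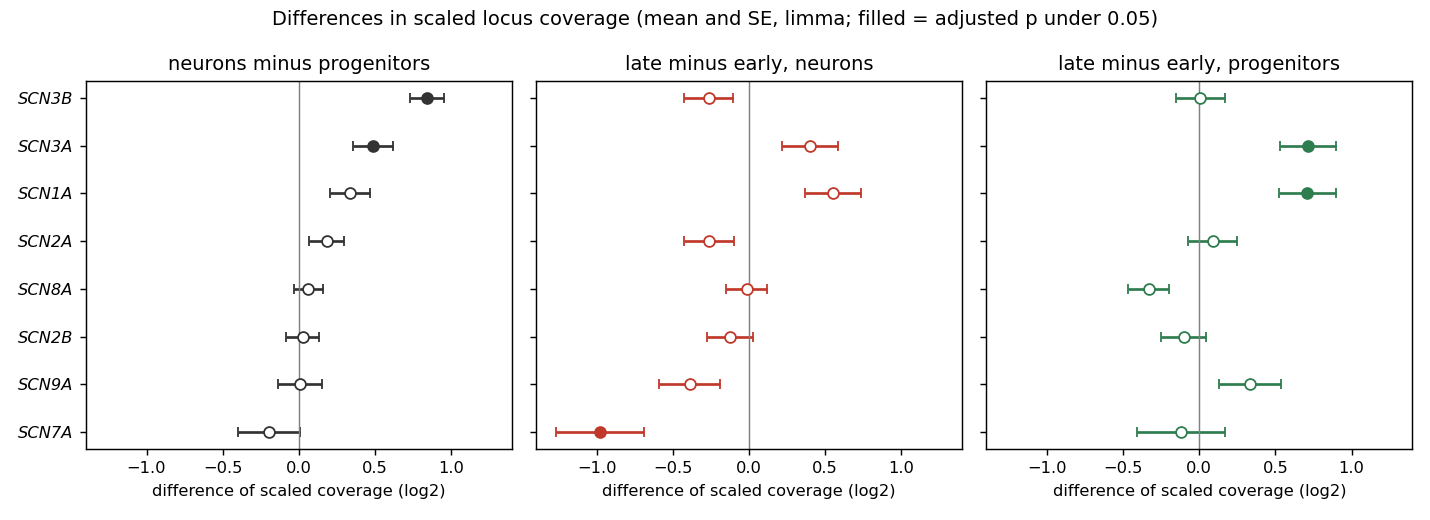
Differences of scaled covered length (log2, x axis) for the 8 members (rows), with the SE of the limma fit: neurons minus progenitors, then late minus early days within neurons and within progenitors. Filled points passed an adjusted p of 0.05: SCN3B and SCN3A in the first panel, SCN7A in the second, SCN3A and SCN1A in the third.

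Between early (days 40 and 60) and late (days 90 and 120) stages, 1 member changed in neurons and 2 in progenitors. In neurons SCN7A was lower late, where 5.67% of all genes were called, 3.30% as higher and 2.37% as lower. Its neuron windows held 3.0 and 1.88 kb (day 40), 0.830 and 1.02 kb (day 60), 0.498 and 0.968 kb (day 90), and 0 and 0.233 kb (day 120). The values step down with each day except for an overlap of days 60 and 90, and the difference, late minus early, was −0.98 ± 0.29 (SE, limma, adjusted p = 0.0436). This call was kept in 4 of the 16 fits that each left out 1 library (neuron day 60 replicate 1, neuron day 120 replicate 2 or either progenitor library of day 120), with adjusted p up to 0.209 in the others, and over the gene body alone the difference was −0.01 (adjusted p = 0.992).

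In progenitors SCN1A and SCN3A were higher late, where 2.91% of all genes were called, 1.44% as higher and 1.46% as lower. SCN1A had 2.12 and 4.0 kb (day 40), 2.12 and 3.18 kb (day 60), 5.23 and 4.91 kb (day 90), and 4.72 and 3.17 kb (day 120). In kb the stages overlap: day 120 replicate 2 lay below 1 library of day 40 and 1 of day 60. On the scaled log2 level, which was tested, they did not overlap. There the highest early value was 5.765 and the lowest late value 5.775, and day 120 replicate 2 was the highest progenitor library at 6.64. The difference, late minus early, was 0.71 ± 0.18 (SE, limma, adjusted p = 0.0354) for SCN1A and 0.71 ± 0.18 (adjusted p = 0.0341) for SCN3A. For SCN3A the stages overlapped on both levels. On the scaled log2 level, day 90 replicate 2 was at 5.416, below day 60 replicate 2 at 5.433. In kb, day 120 replicate 2 was the lowest progenitor library at 1.81. The calls were kept in 10 (SCN1A) and 9 (SCN3A) of the 16 fits that each left out 1 library, with adjusted p up to 0.238 and 0.175. SCN1A lost it without any progenitor library except day 40 replicate 2 and day 120 replicate 1, and SCN3A without any except day 120 replicate 2. No member passed the test of whether the change with stage differed between the populations, in which 0.629% of genes were called, 0.368% as higher and 0.261% as lower, so the stage changes are not shown to be particular to 1 population.

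Single sites were compared as the union of the 16 lists, joined wherever peaks shared at least 1 base, by the number of libraries with a peak. The 8 windows held 120 such regions, of which 14 were open in all 16 lists and 37 in 1 list only. Of the 66 that could be tested, 3 were called, all 3 open in more progenitor than neuron libraries, where 4.33% of 182575 regions were called genome-wide, 1.27% towards neurons and 3.06% towards progenitors.

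The first region, chr2:166167195-166167840, lies 18034 bases upstream of the far SCN1A start, inside SCN1A-AS1. It had a peak in 0 of 8 neuron libraries and 7 of 8 progenitor libraries (two-sided Fisher's exact test, adjusted p = 0.0323). The second, chr2:165373219-165374127, lies inside SCN2A, 18177 bases from its nearer end, with 1 of 8 neuron and 8 of 8 progenitor libraries (exact adjusted p = 0.0323). The third, chr12:51829038-51829662, is in the SCN8A window but over FIGNL2, with 0 of 8 neuron and 7 of 8 progenitor libraries (exact adjusted p = 0.0323). None of the 3 passed in lists cut to equal length or where peaks had to cover 50% of a region. The SCN1A-AS1 region did not pass with peaks of −log10 q of at least 3 (exact adjusted p = 0.0702), nor the SCN2A region without the 2 shortest lists (exact adjusted p = 0.0670).

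Several other regions differed by 5 or more libraries without passing. A region at chr11:123671113-123672973, 16489 bases beyond SCN3B, was open in 6 of 8 neuron libraries, all those of days 40 to 90, and in 0 of 8 progenitor libraries (exact adjusted p = 0.0800). It lies inside the long non-coding RNA gene LOC105369543, which also overlaps that end of SCN3B. Inside SCN9A, chr2:166361042-166361939 was open in 0 of 8 neuron and 6 of 8 progenitor libraries (exact adjusted p = 0.0800). Inside SCN3A, chr2:165111971-165112448 was open in 5 of 8 neuron and 0 of 8 progenitor libraries (exact adjusted p = 0.167). The same counts held 6337 bases outside SCN7A at chr2:166396404-166397236. Near the end of SCN1A, chr2:165989502-165990312 was open in 7 of 8 neuron and 2 of 8 progenitor libraries (exact adjusted p = 0.223). This region also lies inside LOC102724058. Near SCN2B, the region at chr11:118155838-118157385, between SCN2B and SCN4B, was open in 1 of 8 neuron and 6 of 8 progenitor libraries (exact adjusted p = 0.223). 

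**Figure D3:**
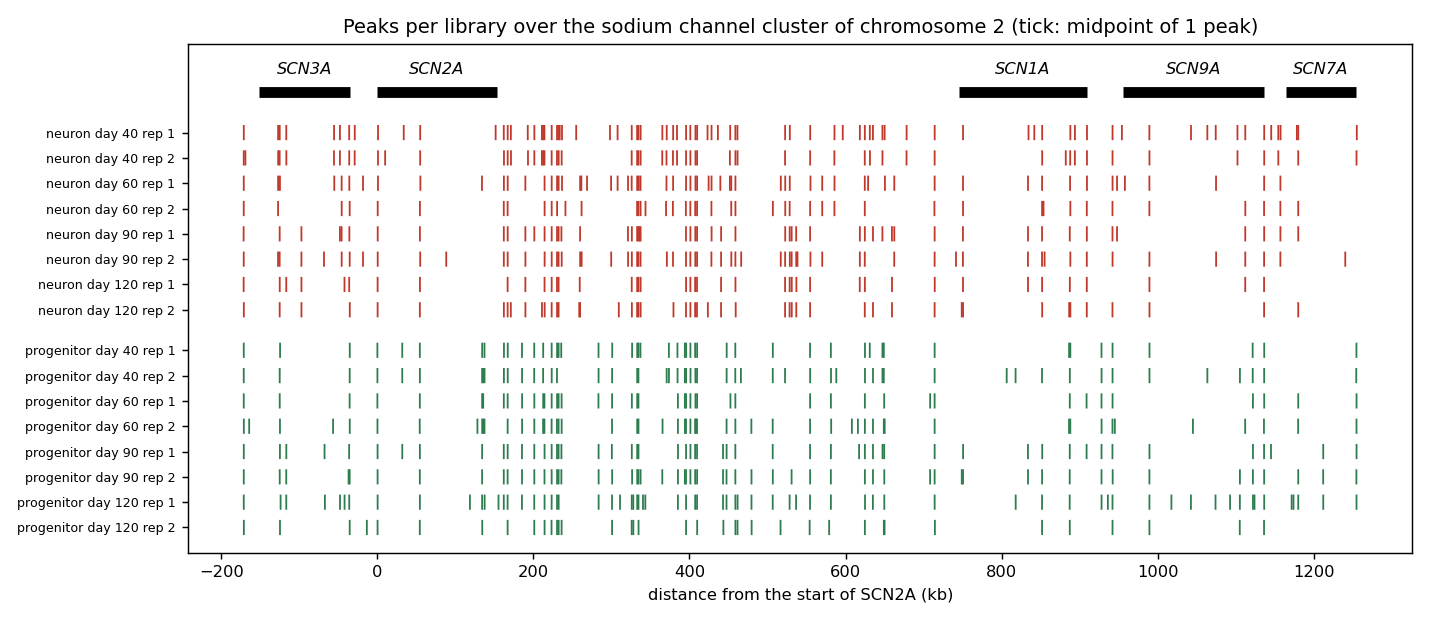
Peaks of each library (rows, neurons above progenitors) over the 5 sodium channel genes of chromosome 2, by distance from the start of SCN2A (kb, x axis); each tick is the midpoint of 1 peak and its width is not to scale, and black bars are gene bodies. Ticks at the SCN2A start stand in all 16 libraries. The column just upstream of the far SCN1A start is filled in 7 progenitor libraries and no neuron library.

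The 2 annotated starts of SCN1A were open in different sets of libraries. Whether an annotated start lies inside a peak was tested over all starts of the promoter table, an analysis added after seeing the data. At the far start, 7 of 8 neuron libraries and 0 of 8 progenitor libraries had a peak over the start itself (two-sided Fisher's exact test, adjusted p = 0.0598), which missed the threshold. Neuron day 60 replicate 2, one of the 2 shortest lists, was the exception, and its peak began just inside the gene. The test passed in 7 of the 16 repeats that each left out 1 library (exact adjusted p from 0.0158 to 0.0571) and without the 2 shortest lists (exact adjusted p = 0.0365). At the inner start, shown above as the second sequence, 7 of 8 neuron and 8 of 8 progenitor libraries had a peak. The merged region over the far start, chr2:166148000-166149483, had a peak in 8 of 8 neuron and 2 of 8 progenitor libraries (exact adjusted p = 0.0800), because 2 progenitor libraries had a peak just inside the gene. With peaks of −log10 q of at least 3 it was called, with 7 of 8 neuron and 0 of 8 progenitor libraries (exact adjusted p = 0.0278). SCN1A-AS1 overlaps both starts on the annotation, and ATAC-seq does not tell strands apart.

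Among the 34788 starts, 6716 could be tested and 0.804% were called, 0.134% towards neurons and 0.670% towards progenitors. The number called, 54, ran from 54 to 249 where 1 library was left out. No member start was called. At SCN2A, the start at 165239414 was inside a peak in 8 of 8 neuron and 8 of 8 progenitor libraries, and the second start at 165241060 in 3 of 8 and 0 of 8 (exact adjusted p = 0.710). SCN8A and SCN9A starts were inside a peak in all 16 libraries. The far SCN7A start was inside a peak in 1 of 8 neuron libraries, at day 40, and in 7 of 8 progenitor libraries (exact adjusted p = 0.184), and its other start in none of the 16. The far SCN7A start passed without neuron day 40 replicate 2 (exact adjusted p = 0.0423) or progenitor day 120 replicate 2 (exact adjusted p = 0.0347). These are the 2 libraries that differ from the rest of their population there, so both passes are no support. The merged region over that start, chr2:166493263-166495099, had a peak in 2 of 8 neuron and 7 of 8 progenitor libraries. With peaks of −log10 q of at least 3 it had one in 2 of 8 neuron and 3 of 8 progenitor libraries. SCN2B was covered at its start in 2 of 8 neuron and 0 of 8 progenitor libraries. The merged region over the SCN2B start, chr11:118174935-118176644, had a peak in 8 of 8 neuron and 5 of 8 progenitor libraries (exact adjusted p = 0.485).

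Peaks at several gene ends were wider in neurons. Width was compared at the 8846 gene ends that lay inside a peak in all 16 libraries, on the log2 scale relative to each library's median. The width comparison was added after seeing the data, when the widths at the members had already been seen. Of 5 member ends that could be tested, 3 were wider in neurons (SCN8A, SCN3B and SCN2A) and none narrower, where 7.21% of ends were called, 3.07% as wider and 4.14% as narrower. The number of ends called, 638, ran from 323 to 1289 where 1 library was left out. Peak edges were set by the authors' caller in each library separately and can move with depth, which is unknown.

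At the CG-rich SCN8A start, the peak spanned 3002 and 3192 bases (day 40), 3387 and 3118 (day 60), 3022 and 3306 (day 90), and 3171 and 2295 (day 120) in neurons. In progenitors it spanned 2048 and 2075 bases (day 40), 2064 and 2202 (day 60), 2168 and 2078 (day 90), and 2140 and 1101 (day 120). The groups did not overlap, which held with neurons wider at 0.407% of the ends. The difference was 0.61 ± 0.08 (SE, limma, adjusted p = 0.00254), and it passed without each of the 16 libraries in turn. Neuron peaks reached 0.870 to 1.12 kb upstream of the start and 1.37 to 2.31 kb downstream, and progenitor peaks 0.680 to 0.969 kb upstream and 0.420 to 1.24 kb downstream. The downstream ranges do not overlap and the upstream ranges do. The covered length of the whole SCN8A window did not follow, as given above.

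At SCN3B, the peak over the gene end of higher coordinate had a lowest, median and highest width of 1593, 2824 and 3014 bases in neurons and 653, 1561 and 1684 bases in progenitors. Neuron day 60 replicate 2 and day 120 replicate 2 lay below the highest progenitor library, and the other 6 neuron libraries lay above it. Its difference was 0.72 ± 0.11 (SE, limma, adjusted p = 0.00447), kept without each of the 16 libraries in turn. LOC105369543 also overlaps this end of SCN3B. SCN2A peaks at the low-GC start were 940 to 1946 bases wide in neurons and 297 to 1074 in progenitors, a difference of 1.04 ± 0.23 (adjusted p = 0.0237). In neurons the widest SCN2A peaks, of 1819 bases or more, were in 3 libraries of days 40 and 60, and these are the 3 whose peak reached the second start. The SCN2A call was lost without any 1 of 4 libraries (neuron day 40 replicate 1, neuron day 90 replicate 2 and both progenitor libraries of day 90), with adjusted p up to 0.0593. SCN3A (0.56 ± 0.36, adjusted p = 0.397) and SCN9A (0.05 ± 0.09, adjusted p = 0.799) did not pass.

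**Figure D4:**
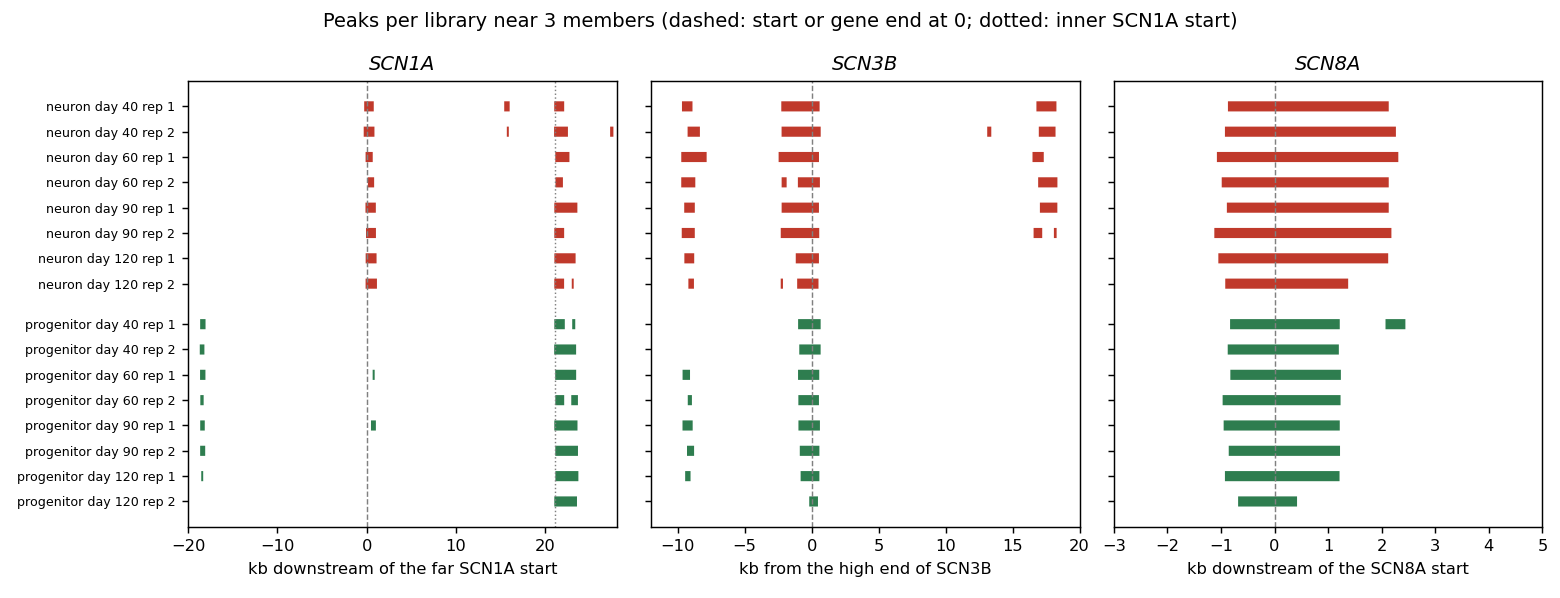
Peaks of each library (rows, neurons above progenitors) near the far SCN1A start, the SCN3B end of higher coordinate and the SCN8A start, by distance (kb, x axis; positive is downstream for SCN1A and SCN8A and towards higher coordinates for SCN3B), drawn to scale. Neuron peaks alone cross 0 in the SCN1A panel, neuron peaks alone fill the outer SCN3B site near 17 kb, and the SCN8A peak ends further downstream in neurons.

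**Figure D5:**
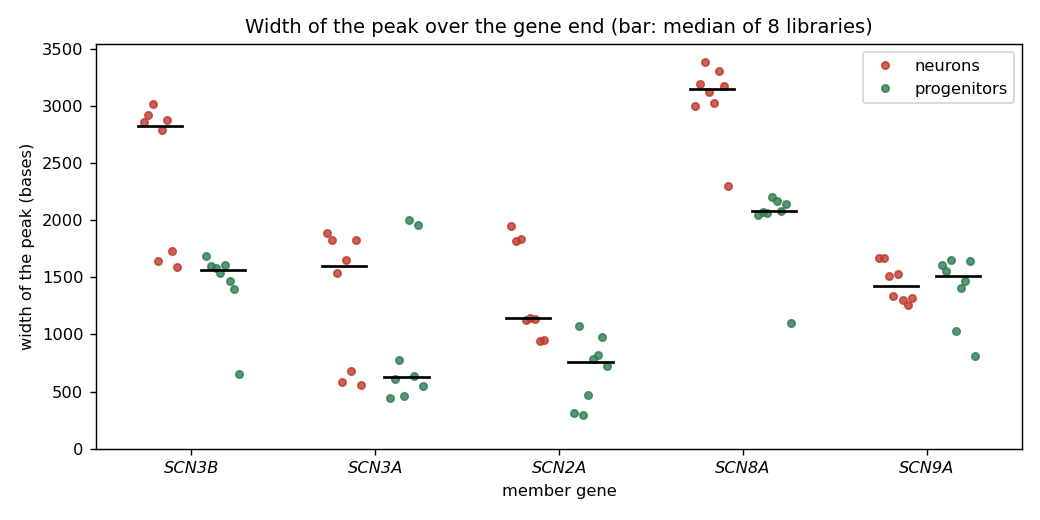
Width in bases (y axis) of the peak over the gene end of 5 members (x axis), with 1 point per library, neurons left of progenitors, and a bar at the median of 8 libraries. The SCN8A points do not overlap, with neurons at 2295 to 3387 bases and progenitors at 1101 to 2202 bases.

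Genes that act with the channels were read from the same fit of covered length. Among other sodium channel genes, SCN11A, an alpha subunit of sensory neurons, was lower in neurons at −0.43 ± 0.12 (SE, limma, adjusted p = 0.0107). Of 10 genes of the axon initial segment and node, 5 were higher in neurons and 0 lower, where 11.1% of all genes were higher and 9.90% lower, with a list median of 0.31 against 0.05 over all genes. The 4 with the largest differences were CNTN2 (0.55), a contactin of the juxtaparanode, NFASC (0.53), which encodes neurofascin, ANK3 (0.51), which encodes ankyrin-G, and SPTBN4 (0.39), a beta spectrin. Of 14 genes that bind or regulate the channels, 2 were higher and 2 lower: FGF12 (0.51) and FGF13 (−0.29), both fibroblast growth factor homologous factors that bind the channel tail, GPD1L (0.38) and the kinase gene CAMK2D (−0.31). SPTBN4 did not pass without neuron day 120 replicate 2 (limma, adjusted p = 0.0550). CNTN2 was −0.14 over the gene body alone, GPD1L was −0.15 by number of peaks, and FGF13 passed in 7 of the 16 fits that each left out 1 library.

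The members did not move together as 1 block. Over the 16 libraries, Pearson's r of scaled covered length, which shares the library total, was highest for SCN1A with SCN3A (0.674), whose windows share no bases, and lowest for SCN1A with SCN7A (−0.524). SCN7A and SCN9A, with shared bases, reached 0.527. Among 18740 genes outside the member windows, the pattern of SCN3B was most like CTXND1 (r = 0.929) and KRTAP10-12 (0.906), and that of SCN1A most like SLC4A4 (0.919) and SCEL (0.895). The nearest for SCN2A were ODAPH (0.888) and CATSPERB (0.879), for SCN3A CYP39A1 (0.882), and for SCN8A PYDC1 (0.883) and PYCARD (0.881). For SCN7A they were PTCHD4 (0.844) and SEC16B (0.835), for SCN9A TAS2R13 (0.848) and SPOCK3 (0.823), and for SCN2B ALKBH5 (0.862) and CRYZL1 (0.836). These are the highest of many correlations over 16 points and describe these libraries only.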

How the data were processed

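Nuclei were treated with Tn5 for 30 minutes, per the labels' protocol. The submitters' processing notes name MACS2 2.1.2, SAMtools 1.9, Picard, BWA 0.7.17 and Trim Galore 0.5.0, and hg38 as build. Treatment of duplicates, mitochondrial reads and the Tn5 offset is not given in the sources used. The authors deposited 1 broad peak list per library, with a score, a fold enrichment ratio over background and −log10 p-values and −log10 q-values for each peak. Those values are the authors' own and served to order or select peaks inside a single list, since no counts are given. A deeper library can list more and wider peaks.

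Covered length was log2(bases + 500) minus log2 of the library's total covered bases. The pseudocount understates changes of sparsely covered genes, and a window with no peak is scaled to a higher value where the list is short, which touches SCN7A. Genes with at least 500 bases in at least 2 libraries (18755) entered 1 limma 3.58.1 fit (R 4.3.3) of 8 group means, with a trend in the prior variance. Regions with a peak in 2 to 14 libraries, and gene starts, were compared with Fisher's exact test (Python 3.11.15, scipy 1.17.1, numpy 2.4.6). The Benjamini-Hochberg adjustment ran over all features tested. Scripts were tested on simulated data. The members and gene lists were chosen with earlier results of these data known. All members were named, with up to 4 genes per other list past the threshold by size, the 2 most correlated genes per member, and up to 3 regions per member by difference in libraries; some genes that meet this rule are not reported here. Alternatives were other pseudocounts, flanks, scalings, peak filters, peak numbers, a replicate block and leaving out libraries.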

Additional observations from a re-analysis of the deposited data

Results flagged for a closer look

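In each population, the covered length and the number of peaks of each member were checked for a library far from the other 7, which made 32 groups of 8 libraries, and 8 were marked. For independent, normally distributed values, chance would mark about 1 in 20 groups. These groups pool the 4 days, are not scaled for list length and reuse the same 16 libraries. The number marked therefore cannot be set against that rate. Of the 8 marked, 4 belong to progenitor day 120 replicate 2, the shortest list, which had the lowest covered length at SCN7A (0.0 kb), SCN8A (2.355 kb), SCN2B (2.515 kb) and SCN3B (0.841 kb). The other 4 concern SCN9A. Neuron day 40 replicate 1 had 7.066 kb in 11 peaks there, and the other 7 neuron libraries had at most 3.52 kb. Progenitor day 120 replicate 1 had 6.454 kb in 11 peaks, and the other 7 progenitor libraries had at most 3.65 kb. The difference of SCN9A between the populations was −0.10 without that neuron library, against 0.01 with all libraries, and passed in neither.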

How the results depend on the processing

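Read depth was unknown, so peak presence and extent carry the limits of each list. SCN3B kept its call under each alternative run.

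Between neurons and progenitors, 4 members were called with a flank of 5 kb and without day 120, and 1 with no scaling and with scaling by the median. Genes called were 2072 with a pseudocount of 2000 bases and 1678 with no scaling, against 3945. Leaving out 1 library gave 3066 to 5417 genes and 2 to 3 members. Signs turned, with no call on either side except where given, as follows. SCN9A was −0.05 over the gene body, −0.043 with no scaling, −0.033 with median scaling, −0.07 by number of peaks and −0.12 without the 2 shortest lists. SCN2B was −0.025 with no scaling, −0.015 with median scaling and −0.12 by number of peaks. SCN2A was −0.31 and SCN8A −0.14 by number of peaks. SPTBN4 did not pass without neuron day 120 replicate 2 (limma, adjusted p = 0.0550). CNTN2 was −0.14 over the gene body and −0.073 by number of peaks, and GPD1L was −0.017 in lists of equal length and −0.15 by number of peaks, where neither passed. SCN7A was 0.72 with −log10 q of at least 3 (limma, adjusted p = 0.0208), and 0.048 without day 120, where SCN8A was −0.062. The SCN9A width was −0.007 without the 2 shortest lists. Leaving out 1 library gave SCN9A −0.095 to 0.111, SCN2B −0.028 to 0.079 and the SCN9A width −0.019 to 0.115.

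Late minus early in neurons, 0 members were called with pseudocounts of 100 or 2000 bases, a flank of 5 kb, the gene body, no scaling, median scaling, equal lengths, number of peaks, no trend in limma or without the 2 shortest lists. Genes called were 558 with a pseudocount of 2000 bases, 293 with no scaling, 655 with −log10 q of at least 3, 693 by number of peaks, 677 with no trend and 2094 without the 2 shortest lists, against 1063. Leaving out 1 library gave 446 to 1689 genes and 0 to 2 members.

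Late minus early in progenitors, 1 member was called with a pseudocount of 100 bases, median scaling or without the 2 shortest lists, and 0 with a pseudocount of 2000 bases, no scaling, equal lengths, number of peaks or no trend. Genes called were 231 with a pseudocount of 2000 bases, 30 with no scaling, 1061 in equal lengths, 281 by number of peaks, 259 with no trend and 1425 without the 2 shortest lists, against 545. Leaving out 1 library gave 104 to 914 genes and 0 to 2 members.

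For the difference between these stage changes, genes called were 60 with a pseudocount of 2000 bases, 72 over the gene body, 0 with no scaling, 69 with median scaling, 446 in equal lengths, 2 by number of peaks, 25 with no trend and 1657 without the 2 shortest lists, against 118. Leaving out 1 library gave 15 to 420 genes, and 1 member, SCN7A, was called with −log10 q of at least 3. The 21 stage differences of members that did not pass were recomputed 628 times, and 47 changed sign. Of these values, 4 passed: with −log10 q of at least 3, SCN7A late minus early in progenitors (1.31, limma, adjusted p = 0.0252) and its difference of stage changes (−2.59, adjusted p = 0.0174), and SCN1A late minus early in neurons (0.55) without either progenitor library of day 120 (adjusted p = 0.0398 and 0.0406). No region in the member windows was called (0) with 50% overlap or in equal lengths, and leaving out 1 library gave 3 to 4. Stratified by day, 0 regions passed genome-wide, so that test says nothing of these regions. The cause of these shifts was not tested.

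Same-numbered libraries did not deviate together in a consistent way (28 pairs, r from −0.12 to 0.25, 6 over 0.1 and 3 under −0.1), so the numbers were not taken as pairs. With the replicate number as a block, 4119 genes and 2 members were called between the populations, 1 and 2 members in the stage comparisons of neurons and progenitors, and 3 regions in the member windows.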
